A study of Mus musculus with 12 samples.

Results

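Coenzyme Q biosynthesis was followed through 10 genes, Pdss1, Pdss2, Coq2, Coq3, Coq4, Coq5, Coq6, Coq7, Coq8a and Coq9, chosen by name because their enzymes build coenzyme Q on a tail of mevalonate-derived isoprene units. All 10 were found among the 48526 genes of the deposited CPM table (each count scaled to the total of its liver), and all 10 entered the tests, which covered the 11968 genes that exceeded 1 CPM in 6 or more livers. The livers came from C57BL/6J mice, an inbred laboratory strain, and carried no transgene or deletion according to the labels. There were 4 groups of 3 livers, 12 in all, each from a different mouse: females on chow, females on chow with simvastatin, males on chow, and males on chow with simvastatin, each kept on the diet for 4 weeks. The cohorts were 8 to 10 weeks old at the start, and the dose was 0.1 g simvastatin per kg, given as body weight in the labels and as food weight in the methods of the study. The question was whether the drug changes the hepatic transcripts of this branch of its own target pathway, and whether it does so alike in both sexes.

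Simvastatin lowers the flux through the mevalonate pathway, which supplies cholesterol and also the isoprenyl diphosphates used for the coenzyme Q tail. Coenzyme Q carries electrons from complexes I and II to complex III in the inner mitochondrial membrane and acts as a lipid-soluble antioxidant. Pdss1 and Pdss2 together form the prenyltransferase that makes the tail, and Coq2 joins it to the ring precursor 4-hydroxybenzoate. Coq3, Coq5, Coq6 and Coq7 then methylate and hydroxylate the ring, with Coq4, Coq8a and Coq9 acting as scaffold, atypical kinase and lipid-binding partner of the assembly of enzymes known as complex Q.

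The members lie on 8 chromosomes of the mouse genome GRCm38, and all are annotated as protein-coding in GENCODE vM21. Coq8a spans chr1:180165238-180199602 on the minus strand and Coq7 spans chr7:118509659-118533356, also on the minus strand. Coq4 spans chr2:29787493-29797935 on the plus strand. Some exons overlap a gene on the opposite strand: 921 exonic bases of Coq4 are shared with Trub2, 366 of Coq8a with Cdc42bpa, 128 of Coq6 with Fam161b, 38 of Coq9 with Ciapin1, and 207 and 194 of Pdss1 with A130006I12Rik and Abi1. On the same strand, 33 exonic bases of Pdss2 are shared with Gm47856, which strand cannot separate. The libraries were prepared with a strand-specific kit, but the strand setting of the counting is not given in the sources used here, so reads of the overlaps between strands may not have been separated. The upstream sequences below are those of Coq7, Coq8a and Coq4. Coq7 and Coq8a had the lowest values relative to chow in statin-treated females. Coq4 had fitted log2 fold changes of opposite signs in females (0.22) and males (-0.35), with overlapping livers in both. Neither had an unadjusted p under 0.05 (0.260 and 0.0945 by edgeR), and Coq9 also had opposite signs (0.21 and -0.02). Each sequence below is the RefSeq sequence (GRCm38.p6) from up to 250 bases before the start site, 5′ to 3′ on the strand of the gene, without bases that fall in an annotated exon. Capitals mark matches to the searched motifs: the CCAAT box (CCAAT, or ATTGG where it lies on the other strand) in Coq7 and Coq8a, and an E-box (CACGTG) followed by a sterol element (TCACNCCAC) in Coq4.
Coq7 upstream: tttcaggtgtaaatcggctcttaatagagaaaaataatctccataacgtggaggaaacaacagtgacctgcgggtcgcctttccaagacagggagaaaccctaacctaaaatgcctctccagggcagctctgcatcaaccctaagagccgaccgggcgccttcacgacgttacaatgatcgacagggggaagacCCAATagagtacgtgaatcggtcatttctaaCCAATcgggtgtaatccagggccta
Coq8a upstream: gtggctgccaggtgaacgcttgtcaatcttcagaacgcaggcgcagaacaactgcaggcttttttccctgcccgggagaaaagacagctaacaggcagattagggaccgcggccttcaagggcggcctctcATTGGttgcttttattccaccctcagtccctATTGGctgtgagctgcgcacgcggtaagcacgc
Coq4 upstream: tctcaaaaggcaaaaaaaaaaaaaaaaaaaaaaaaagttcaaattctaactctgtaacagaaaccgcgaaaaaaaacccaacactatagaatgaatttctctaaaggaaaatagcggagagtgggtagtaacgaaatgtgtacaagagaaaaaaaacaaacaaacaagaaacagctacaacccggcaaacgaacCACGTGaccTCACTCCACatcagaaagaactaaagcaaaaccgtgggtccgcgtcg
The Coq7 sequence covers chr7:118533357-118533606 and has CCAAT boxes from 56 to 52 and from 25 to 21 bases before the start. The Coq8a sequence covers chr1:180196076-180196270, a start site inside the span GENCODE gives the gene, and has CCAAT boxes from 119 to 115 and from 88 to 84 bases before the start. The Coq4 sequence covers chr2:29787243-29787492, with the E-box from 56 to 51 and the sterol element from 47 to 39 bases before the start. A second RefSeq start site of Coq8a, with chr1:180193486-180193602 before it outside exons, held none of the searched motifs. The table has 11 windows of 250 bases for 9 of the members, since Coq3 and Coq8a have 2 each, and the motifs were searched in whole windows, exonic bases included. Of the 11 windows 3 held a CCAAT box on either strand (Coq6, Coq7 and the first of Coq8a), a share to be read against 33.85% of 32851 windows of the same length over all genes. The sterol element was in 1 of the 11, against 1.05% of all windows. The E-box was found in 1 of the 11 (Coq4, 6.02% of all windows), the estrogen-related receptor half-site AAGGTCA in 1 (Pdss1, 4.08%), the ETS site CCGGAAG in 1 (Pdss2, 6.91%) and the NRF1 core GCATGCGC in 1 (Coq2, 2.26%), and TGACGT was in none of them (6.47%). These are matches of letters only, none of the searched motifs overlapping another in these windows.

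Each liver had between 46066381 and 60419223 counts, so that 3 counts, taken as the lowest level distinguishable from 0, were between 0.0497 and 0.0651 CPM. The members stood above this limit in every liver, from 56 counts for Pdss1 in its lowest liver to 15209 counts for Coq8a in its highest. These limits cover counting error only. The summed level of 6 hepatocyte markers (Alb, Ttr, Apoa1, Cyp2e1, Cps1 and Tat) was between 84334 and 150324 CPM, as the liver label requires. Alb made up most of it. Cyp2e1 (4232 to 6109 against 3108 to 3536 CPM) and Apoa1 (6055 to 7119 against 4006 to 5710 CPM) were higher in every statin-treated female liver than on chow. Tat was lower (642 to 759 against 889 to 1729 CPM), and Alb, Ttr and Cps1 overlapped. Of 5 skeletal muscle markers 4 (Ckm, Acta1, Myh4 and Tnnt3) were below the limit in every liver, and of 5 pancreas markers 4 were below it. Markers of macrophages (399.8 to 512 CPM summed in female chow, 340 to 650 in female statin), endothelial cells (224 to 238 and 192 to 262) and stellate cells (185 to 213 and 182 to 245) had overlapping ranges in both female groups. On chow the male sums were below all female ones: 218 to 351 CPM for macrophages, 151 to 202 for endothelial cells and 137 to 167 for stellate cells. On statin they were again below for macrophages (221 to 282) and stellate cells (130 to 177). Those of endothelial cells (162 to 208) overlapped. The part of these differences in the comparisons between the sexes was not tested. The 5 B and T cell markers had a low summed level that was higher in every statin-treated female liver (3.70 to 5.34 CPM) than on chow (1.64 to 3.06 CPM). The stellate marker Rgs5 was also higher in every statin-treated female liver (83.7 to 98.4 CPM) than on chow (59.0 to 73.4 CPM), and the other stellate markers overlapped. The part of such marker differences in the results on Coq7 and Coq8a was not tested. In whole liver, fewer cells of a type cannot be told apart from less RNA per cell.

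Divided by the exonic length of the gene, the levels of the members spanned about 2 orders of magnitude and fell into the same broad order in all groups. In female chow livers Coq8a was highest with 51.0 ± 1.13 CPM per kb (mean ± SD, n = 3 here and below). Coq9 followed with 34.0 ± 4.13 CPM per kb and Coq2 with 14.0 ± 1.67 CPM per kb. The ranges of these did not overlap one another. Coq5 (6.82 ± 0.39 CPM per kb), Coq6 (5.89 ± 0.38 CPM per kb) and Coq3 (5.74 ± 0.69 CPM per kb) formed the middle of the order, and the ranges of Coq6 and Coq3 overlapped. Below them came Coq7 (2.68 ± 0.16 CPM per kb), Coq4 (2.05 ± 0.36 CPM per kb) and Pdss2 (1.27 ± 0.02 CPM per kb). Pdss1, the catalytic partner of Pdss2, was lowest with 0.53 ± 0.05 CPM per kb. In the male groups the same genes held the first 4 and the last 4 places, Coq3 stood above Coq6, and the ranges of Coq8a and Coq9 overlapped.

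At 2 places the order in statin-treated females differed from that in the other 3 groups. Coq9 (38.4 ± 10.6 CPM per kb) had a higher mean than Coq8a (31.4 ± 5.52 CPM per kb), with overlapping ranges. Within a liver, the ratio of Coq8a to Coq9 per kb was 1.70, 1.39 and 1.45 in the female chow livers and 0.764, 0.987 and 0.760 in the statin-treated female livers. It was 1.26, 1.13 and 1.18 in male chow and 1.47, 1.12 and 0.750 in male statin, above 1 in 5 of 6 male livers. Such a ratio does not depend on how libraries are scaled. The ratio of Coq7 to Coq4 per kb was 1.197, 1.60 and 1.194 in female chow livers and 0.799, 0.864 and 0.729 in statin-treated female livers. In males it was above 1 in 6 of 6 livers, between 1.13 and 1.37 on chow and between 1.48 and 1.59 on statin. Both ratios were thus below 1 in 3 of 3 statin-treated female livers and above 1 in 3 of 3 female chow livers. They were looked at after the values of these genes had been seen, and no test was made of them. In both, the first gene has the longer exonic length (5293 against 3055 and 6434 against 3399 bases). A liver's trend with transcript length, given below, can therefore move either ratio.

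**Figure D1:**
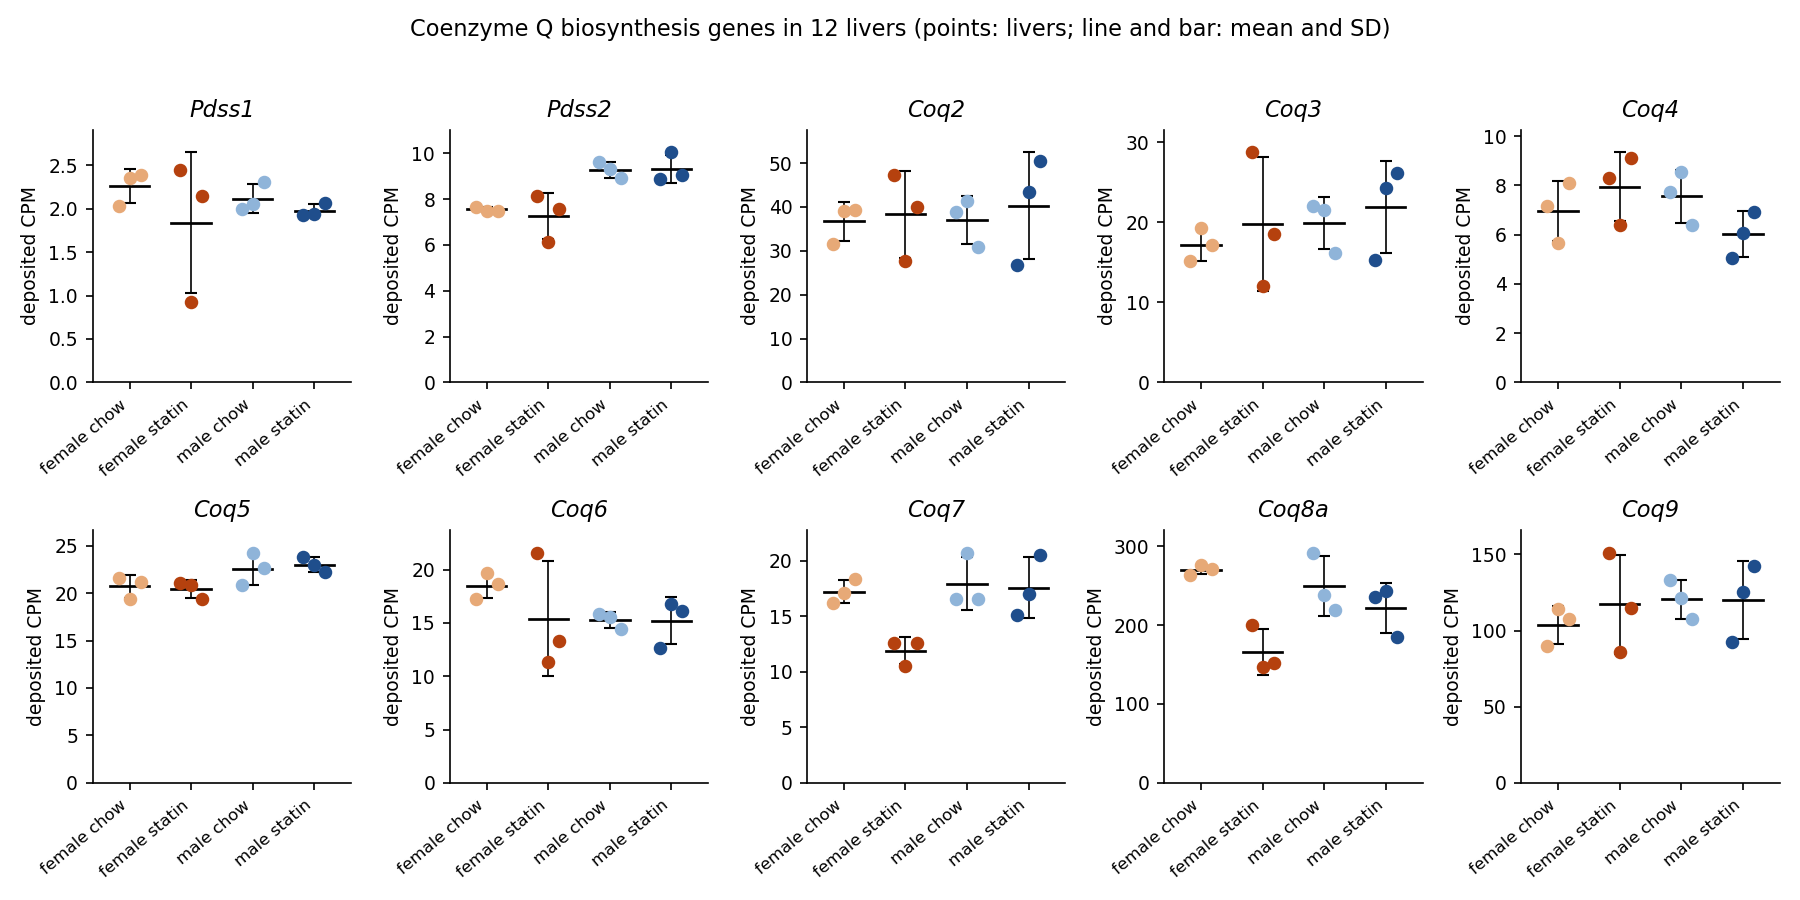
Level of each of the 10 coenzyme Q biosynthesis genes in deposited CPM (vertical axis, from 0) in the 4 groups (horizontal axis), with a point for each liver, a line at the mean and a bar for the SD of 3 livers. The statin-treated female livers lie below all female chow livers for Coq7 (10.5 to 12.6 against 16.2 to 18.3 CPM) and Coq8a (147 to 199.9 against 264 to 275 CPM), and overlap them for the other 8.

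In females, Coq8a and Coq7 had lower levels on statin than on chow in all livers, while the other 8 members overlapped between the diets. None of the 10 passed the test after adjustment over all genes. The lowest adjusted p was 0.118 (edgeR's quasi-likelihood test, two-sided, Benjamini-Hochberg), in a comparison in which 12 of 11968 genes (0.100%) had an adjusted p under 0.05. At an unadjusted p under 0.05 there were 2 of 10 members, both lower on statin, against 10.5% of all genes in either direction and 4.56% of all genes lower. Livers of both diets did not overlap, with statin lower, for the same 2 of 10, against 6.95% of all genes. DESeq2, run as an alternative, placed both under an adjusted p of 0.05, where it placed 2.26% of all genes, and limma placed none of the 10 and 0.109% of all genes. Of the 10 fitted log2 fold changes 5 were above 0 and 5 below, and their median was -0.0026 beside 0.0134 over all genes.

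For the genes of tail synthesis and attachment no difference beyond the spread between livers was found in females. Pdss1, the catalytic subunit, was measured at 2.03, 2.35 and 2.39 CPM in female chow livers and at 2.45, 0.927 and 2.14 CPM in statin-treated livers. Its second statin liver had the lowest level of all 12, while the other two lay within or above the chow range. The log2 fold change was -0.26 (SE 0.28, 95% interval -0.88 to 0.35), and without that liver it was 0.05, so its sign rested on 1 liver. Pdss2, the other subunit, was at 7.68, 7.50 and 7.49 CPM with chow and 8.12, 6.14 and 7.55 CPM with statin. The log2 fold change of Pdss2 was -0.02 with a 95% interval from -0.29 to 0.25. Coq2, which attaches the tail, was at 31.6, 39.1 and 39.4 CPM with chow and 47.4, 27.6 and 39.9 CPM with statin. Of the 3 statin livers of Coq2, 1 lay below and 2 lay above the chow range (log2 fold change 0.10, SE 0.22).

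Of the enzymes that modify the ring, Coq7 differed most. Coq7 is the iron-dependent hydroxylase of the penultimate step and is often regarded as a control point of the pathway. It was measured at 16.2, 17.1 and 18.3 CPM in female chow livers and at 12.6, 10.5 and 12.6 CPM in statin-treated female livers. All 3 statin livers lay below all 3 chow livers, and the mean on statin was 69.0% of that on chow. The log2 fold change was -0.50 (SE 0.14, 95% interval -0.79 to -0.20, unadjusted p = 0.0034 and adjusted p = 0.203 by edgeR, adjusted p = 0.0392 by DESeq2). Coq6, the flavin-dependent hydroxylase of the ring, was at 17.3, 19.7 and 18.6 CPM with chow and 21.6, 11.3 and 13.3 CPM with statin. Its first statin liver was above and the other two were below the chow range (log2 fold change -0.24, SE 0.18, adjusted p = 0.765 by edgeR). Coq5, the C-methyltransferase, was the steadiest member, at 21.6, 19.4 and 21.1 CPM with chow and 21.0, 20.9 and 19.3 CPM with statin. Its log2 fold change was 0.02 with a 95% interval from -0.22 to 0.26. Coq3, the O-methyltransferase, was at 15.2, 19.3 and 17.1 CPM with chow and 28.7, 12.1 and 18.5 CPM with statin. Coq3 thus had both its highest and its lowest level among the 12 livers within the statin-treated females (log2 fold change 0.23, SE 0.25).

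Among the proteins that organise or support complex Q, Coq8a had the lowest value relative to chow of all 10 members. Coq8a (also ADCK3) is an atypical kinase with ATPase activity that complex Q needs, and its human counterpart is mutated in a form of ataxia with coenzyme Q deficiency. It was at 264, 275 and 271 CPM in female chow livers, the tightest of the 4 groups, and at 199.9, 147 and 151 CPM in statin-treated female livers. The highest statin liver was below the lowest chow liver, and the mean on statin was 61.6% of that on chow. The log2 fold change was -0.67 (SE 0.15, 95% interval -0.997 to -0.34, unadjusted p = 0.000816 and adjusted p = 0.118 by edgeR, adjusted p = 0.00218 by DESeq2). By unadjusted p it was gene 83 and Coq7 gene 200 of 11968. Coq9, the lipid-binding partner of Coq7, did not share the direction of Coq7: it was at 89.7, 114 and 108 CPM with chow and 151, 86.2 and 115 CPM with statin (log2 fold change 0.21, SE 0.19, adjusted p = 0.825 by edgeR). Coq4, the scaffold protein, was at 7.15, 5.67 and 8.10 CPM with chow and 8.30, 6.41 and 9.12 CPM with statin (log2 fold change 0.22, SE 0.19). Both genes overlapped between the diets.

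**Figure D2:**
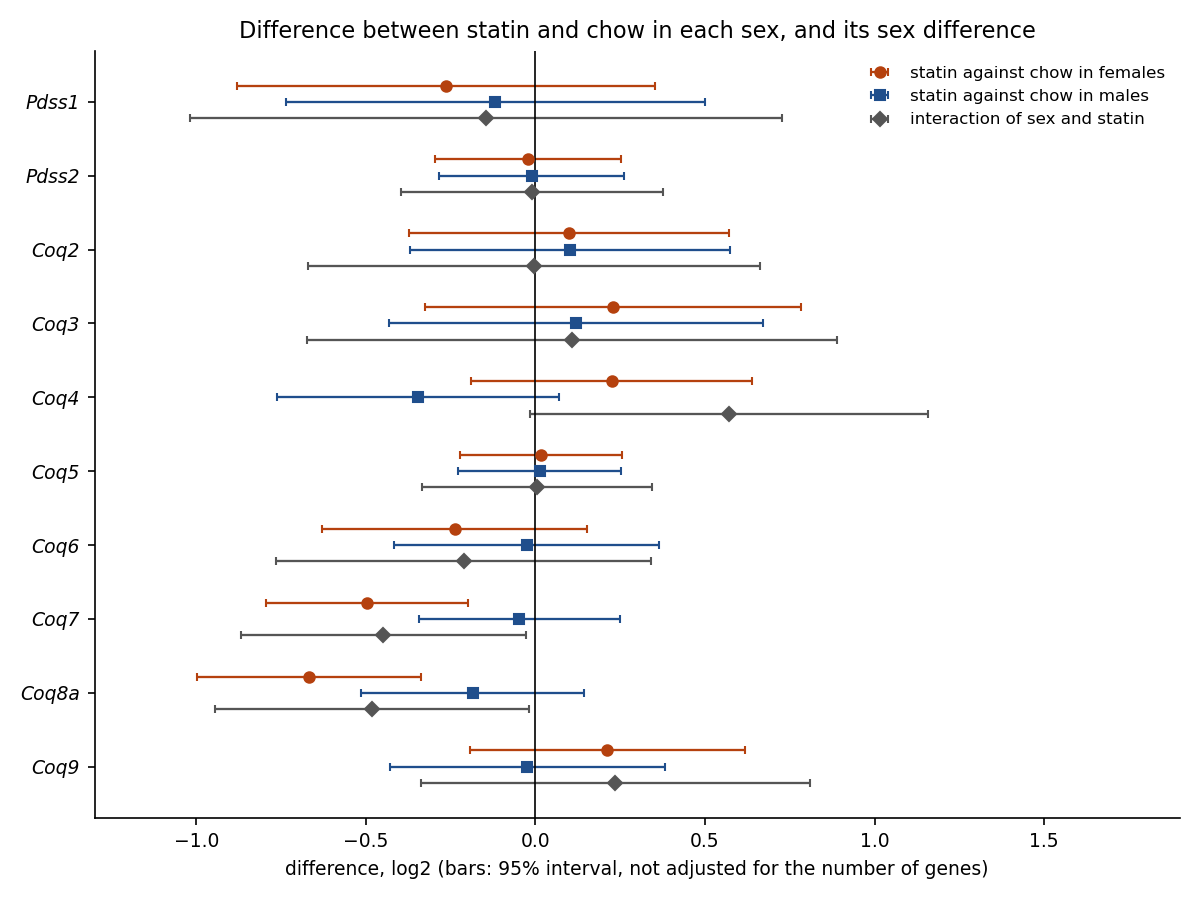
Fitted log2 fold change of statin against chow in females (circles) and in males (squares), and the interaction, females minus males (diamonds), with 95% intervals that are not adjusted for the number of genes. In females the intervals of Coq7 (-0.79 to -0.20) and Coq8a (-0.997 to -0.34) exclude 0, and in males all 10 intervals include 0.

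In males, all 10 members overlapped between statin and chow, with the livers of both diets not overlapping for 7.86% of all genes. None of the 10 had an adjusted p under 0.05 (edgeR, 0.00% of all genes) or an unadjusted p under 0.05 (1.96% of all genes), and none had an adjusted p under 0.05 by DESeq2 (0.0334% of all genes) or limma (0.00%). The median log2 fold change of the members was -0.03, beside 0.0036 over all genes. Coq4 had the lowest value relative to chow: it was at 7.74, 8.54 and 6.41 CPM with chow and 5.04, 6.08 and 6.91 CPM with statin. The highest statin liver lay within the chow range, and the log2 fold change was -0.35 (SE 0.19, 95% interval -0.76 to 0.07, unadjusted p = 0.0945, adjusted p = 1.00 by edgeR). Coq8a was at 291, 238 and 219 CPM in male chow livers and 236, 243 and 185 CPM in male statin livers. The first chow liver was the highest of the 12 and the third statin liver was lower than any chow liver, with the others between (log2 fold change -0.19, SE 0.15, unadjusted p = 0.242, adjusted p = 1.00 by edgeR). Coq7 was at 16.5, 20.7 and 16.6 CPM with chow and 15.1, 17.0 and 20.5 CPM with statin, and these ranges overlapped (log2 fold change -0.05, 95% interval -0.34 to 0.25).

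The remaining members of the male comparison had log2 fold changes between -0.12 and 0.12. Pdss1 had group means of 2.12 ± 0.17 CPM with chow and 1.98 ± 0.07 CPM with statin, and Pdss2 of 9.29 ± 0.34 and 9.32 ± 0.62 CPM. For both subunits the ranges of the diets overlapped. Coq5 had means of 22.5 ± 1.68 CPM with chow and 23.0 ± 0.77 CPM with statin, and Coq6 of 15.3 ± 0.77 and 15.2 ± 2.21 CPM. Coq2 (37.0 ± 5.46 and 40.2 ± 12.2 CPM), Coq3 (19.9 ± 3.24 and 21.9 ± 5.75 CPM) and Coq9 (121 ± 12.8 and 120.2 ± 25.5 CPM) had a wider spread on statin than on chow, as they did in females. For these the first male statin liver was lowest (26.7, 15.4 and 92.5 CPM) and the third highest (50.5, 26.1 and 143 CPM).

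The difference between the sexes in the response was tested as the interaction of sex and statin. None of the 10 members passed the adjusted threshold, as was the case for all 11968 genes (0.00%, edgeR), and none passed it by DESeq2 (1.02% of all genes) or limma (0.00%). At an unadjusted p under 0.05 there were 2 of 10, against 8.01% of all genes. These were Coq7, with a log2 difference of -0.45 between the female and the male fold change (SE 0.19, 95% interval -0.87 to -0.03, unadjusted p = 0.0379, adjusted p = 0.579 by edgeR), and Coq8a, with -0.48 (SE 0.21, 95% interval -0.95 to -0.02, unadjusted p = 0.0426, adjusted p = 0.599 by edgeR). For both, the female value relative to chow was the lower. Coq4 had the largest interaction of the other sign, 0.57 (SE 0.27, 95% interval -0.02 to 1.16, unadjusted p = 0.0553, adjusted p = 0.643 by edgeR). The remaining 7 lay between -0.21 and 0.24, and the median of all 10 was -0.0071 beside 0.0072 over all genes. A response that differs between the sexes was thus not shown for any member after adjustment.

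Females and males were also compared on each diet. On chow no member had an adjusted p under 0.05, where 10.4% of all genes did, and none had an unadjusted p under 0.05, where 24.9% of all genes did (edgeR). DESeq2 and limma placed none under the adjusted threshold either, where they placed 16.3% and 11.0% of all genes. Livers of the sexes did not overlap for 2 of 10 members on chow, against 37.9% of all genes. Pdss2 was lower in females, at 7.49 to 7.68 CPM against 8.93 to 9.61 CPM in males (log2 fold change -0.26, SE 0.13, unadjusted p = 0.0618, adjusted p = 0.228 by edgeR). Coq6 was higher in females, at 17.3 to 19.7 CPM against 14.4 to 15.9 CPM (log2 fold change 0.31, SE 0.18, unadjusted p = 0.106, adjusted p = 0.311 by edgeR). Coq8a and Coq7, by contrast, overlapped between the sexes on chow, with log2 fold changes of 0.15 and -0.02.

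On statin, 3 of 10 members had an unadjusted p under 0.05 between the sexes, against 19.4% of all genes, and none had an adjusted p under 0.05, against 6.28% of all genes (edgeR). Coq7 was lower in every female than in any male liver, at 10.5 to 12.6 CPM against 15.1 to 20.5 CPM. Its log2 fold change was -0.47 (SE 0.14, unadjusted p = 0.00487, adjusted p = 0.0651 by edgeR). It passed the adjusted threshold with DESeq2 (adjusted p = 0.0143, 10.7% of all genes) and with edgeR scaled by library size alone (adjusted p = 0.0439, 5.71% of all genes), as the only member in each, and limma placed no member there (6.33% of all genes). Coq4 was at 6.41 to 9.12 CPM in females and 5.04 to 6.91 CPM in males (log2 fold change 0.50, SE 0.19, unadjusted p = 0.0226, adjusted p = 0.163 by edgeR). Coq8a was at 147 to 199.9 CPM in females and 185 to 243 CPM in males, with overlap (log2 fold change -0.33, unadjusted p = 0.0497, adjusted p = 0.256 by edgeR). In deposited CPM the sexes did not overlap on statin for Coq7, Coq5 and Pdss2, which is 3 of 10 members against 22.3% of all genes. Coq5 differed little (19.3 to 21.0 against 22.2 to 23.8 CPM, log2 fold change -0.08), and after TMM scaling (a trimmed mean of log ratios between libraries) its livers overlapped, while those of Coq4 no longer did. Pdss2 was at 6.14 to 8.12 CPM in females and 8.90 to 10.04 CPM in males, as on chow.

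Single livers moved several members together. Coq2, Coq3 and Coq9 were highest among the statin-treated females in the first liver and lowest in the second. On the log2(TMM-scaled CPM + 1) scale the first liver stood 0.30, 0.53 and 0.37 above the mean of the 12 livers for Coq2, Coq3 and Coq9. The second liver stood at -0.35, -0.56 and -0.33, and it was also the lowest of the 12 for Pdss1, Pdss2, Coq6, Coq7 and Coq8a. The first male statin liver stood at -0.47, -0.30 and -0.30 for the same 3 genes, and the third at 0.37, 0.37 and 0.27. The livers also differed in how the counts of all genes depended on transcript length. The slope of a gene's log2 deviation on the log2 of its length, over 7634 genes, was -0.14 in the first statin-treated female liver and 0.11 in the second. It was 0.15 in the first and -0.09 in the third male statin liver, and between -0.05 and 0.09 in the other 8. Whether this is part of the spread of Coq2, Coq3 and Coq9 was not tested. Over all alternatives that kept every liver, a correction for length included, the female log2 fold change was between -0.54 and -0.47 for Coq7 and between -0.70 and -0.66 for Coq8a.

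**Figure D3:**
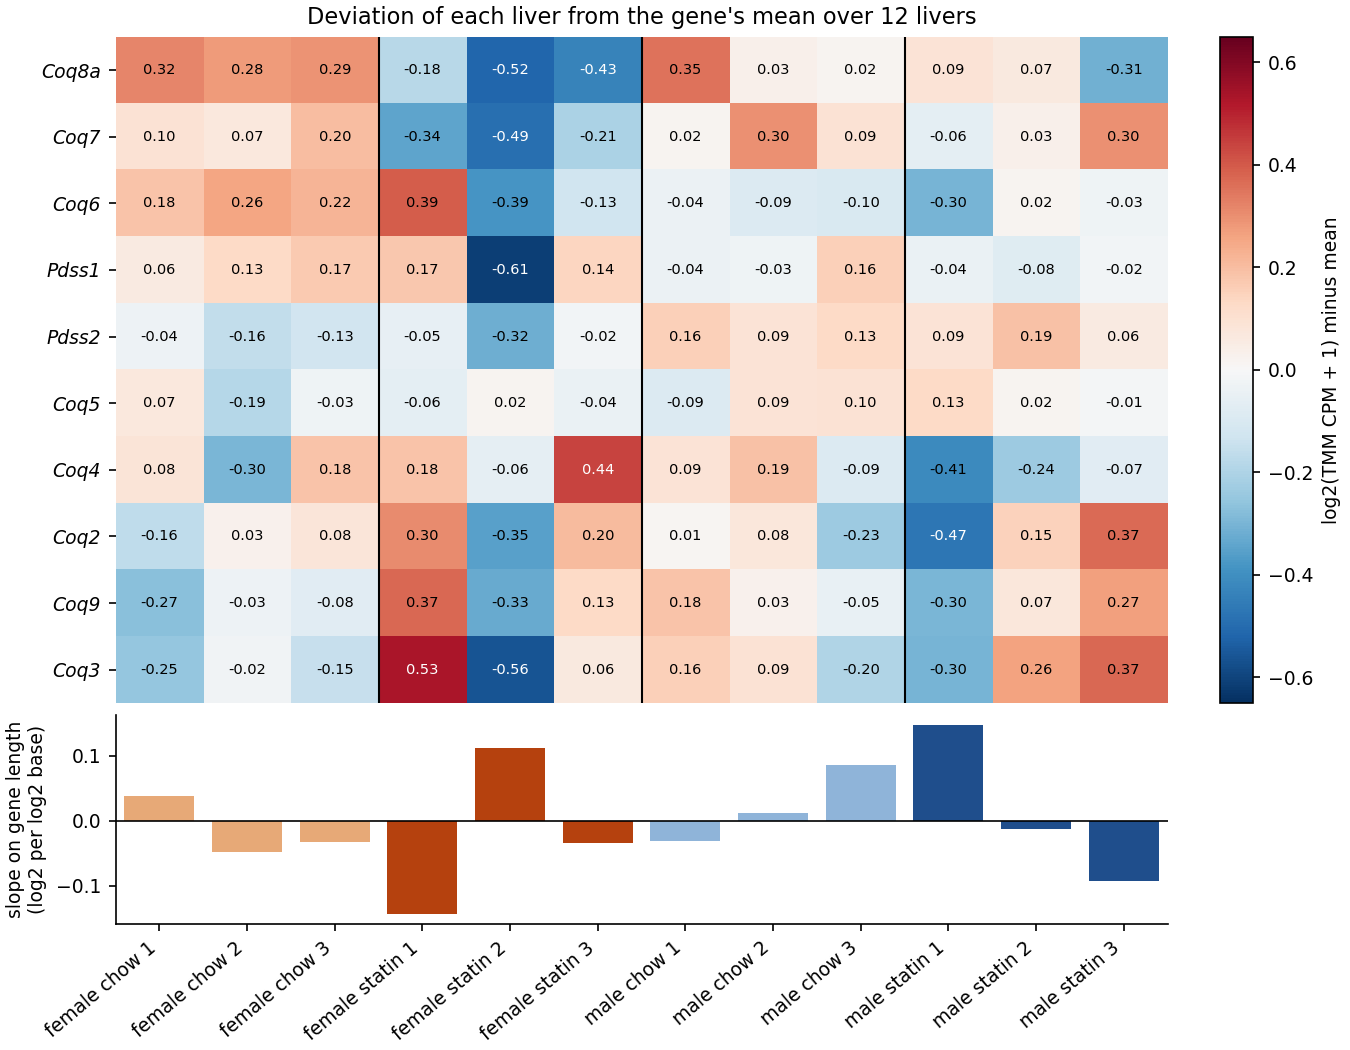
Upper panel, deviation of each of the 12 livers (columns) from the mean of each gene (rows) in log2(TMM-scaled CPM + 1), red above and blue below the mean, with lines between the 4 groups. Lower panel, the slope of all genes' log2 deviations on log2 transcript length in the same livers. Coq8a and Coq7 are below the mean in all 3 statin-treated female livers, whereas Coq2, Coq9 and Coq3 are high in the first (slope -0.14) and low in the second (slope 0.11).

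The genes whose levels were most like those of a member over the 12 livers were sought for the members with the smallest unadjusted p in females. For Coq8a this was Psmd7, a subunit of the proteasome lid (Pearson r = 0.922 of log2(TMM-scaled CPM + 1) over 12 livers). For Coq7 it was Gnai1, an inhibitory G protein subunit (r = 0.944), and for Coq6 it was Nme1, a nucleoside diphosphate kinase (r = 0.952). None of these was another member. The values describe 12 livers that share their groups and libraries, and each gene was picked as the highest of 11967 candidates.

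Other genes of coenzyme Q metabolism were looked at beside the members. Of 7 further coenzyme Q genes none had an unadjusted p under 0.05 in females, where 10.5% of all genes did, and their median log2 fold change was 0.0023. Coq8b, the paralog of Coq8a, was at 18.9 ± 1.13 CPM with chow and 18.1 ± 1.49 CPM with statin (log2 fold change -0.02, unadjusted p = 0.882, adjusted p = 0.993 by edgeR). Coq10a, which encodes a coenzyme Q chaperone, had a log2 fold change of 0.27 (unadjusted p = 0.0588, adjusted p = 0.509 by edgeR) and Fdx2, a ferredoxin that supplies electrons to Coq6, of 0.09. In males Coq10b was the only one of the 7 with an unadjusted p under 0.05 (1.96% of all genes), at 42.6 CPM with chow and 59.3 CPM with statin (log2 fold change 0.46, unadjusted p = 0.0235, adjusted p = 1.00 by edgeR), and Stard7 had a log2 fold change of 0.14. The sexes differed on chow in Coq10a, lower in females by 0.50 on the log2 scale (adjusted p = 0.0324 by edgeR), the only one of the 7 with an adjusted p under 0.05 there, against 10.4% of all genes.

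The next lists hold the supply side of the pathway. Of 7 genes on the route from phenylalanine and tyrosine to the ring precursor 5 were tested, and 2 of them had an unadjusted p under 0.05 in females, both lower on statin (10.5% of all genes in either direction, 4.56% lower). Got1, the cytosolic aspartate aminotransferase, was at 627 ± 118 CPM with chow and 296 ± 131 CPM with statin (log2 fold change -1.07, unadjusted p = 0.00369, adjusted p = 0.210 by edgeR). Tat, the tyrosine aminotransferase, was at 1364 ± 431 and 708 ± 59.8 CPM (log2 fold change -0.91, unadjusted p = 0.00638, adjusted p = 0.241 by edgeR). In males both had positive log2 fold changes, 0.63 and 0.50, and their interactions had unadjusted p of 0.00162 and 0.00348 and adjusted p of 0.305 and 0.318 by edgeR. On chow Got1 was higher in females than in males by 1.53 on the log2 scale (adjusted p = 0.00727 by edgeR, 10.4% of all genes under 0.05). On statin the value of Got1 was -0.17 (adjusted p = 0.842 by edgeR). Tat is also among the hepatocyte markers used above. Of 9 genes from acetyl-CoA to the isoprenyl diphosphates none had an unadjusted p under 0.05 in females (10.5% of all genes) or in males (1.96%), and the median log2 fold change was -0.37 in females and 0.17 in males. Pmvk, the phosphomevalonate kinase, had -0.72 in females and 0.63 in males (interaction unadjusted p = 0.0239, adjusted p = 0.503 by edgeR), and Acat2, an acetyl-CoA acetyltransferase, had -0.62 in females and 0.17 in males. On chow Pmvk was higher in females than in males by 1.37 on the log2 scale (adjusted p = 0.0370 by edgeR). Sqle, of the list that follows, was higher there by 1.68 (adjusted p = 0.0302 by edgeR).

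Among 11 other users of isoprenyl diphosphates, 2 had an unadjusted p under 0.05 in females, both lower on statin (4.56% of all genes lower). These were Fntb, the beta subunit of protein farnesyltransferase (4.74 ± 1.18 and 2.89 ± 0.28 CPM, log2 fold change -0.69, adjusted p = 0.280 by edgeR), and Dhdds, a subunit of the dolichol-forming prenyltransferase (32.9 ± 1.26 and 26.4 ± 2.09 CPM, log2 fold change -0.28, adjusted p = 0.459 by edgeR). None of the 11 did in males (1.96% of all genes), where Cox10, the heme farnesyltransferase, had the value 0.20 and Rabggta -0.17. Of 13 listed enzymes that reduce or oxidize coenzyme Q outside complexes I and III 12 were tested, and 1 had an unadjusted p under 0.05 in females, against 10.5% of all genes. This was Aifm2, the reductase also known as FSP1 that keeps coenzyme Q reduced at the plasma membrane, at 25.9 ± 2.06 CPM with chow and 36.1 ± 8.02 CPM with statin (log2 fold change 0.53, unadjusted p = 0.00707, adjusted p = 0.248 by edgeR). Its log2 fold change in males was -0.12 (interaction unadjusted p = 0.0151, adjusted p = 0.462 by edgeR). Etfdh, which passes electrons from fatty acid oxidation to coenzyme Q, had a log2 fold change of 0.38 in females, against -0.25 in males, and Prodh2 had -0.18 in males.

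The last list held 15 genes of mitochondrial mass and biogenesis. Of these, 10 had a log2 fold change above 0 in females, the median was 0.04, and 3 had an unadjusted p under 0.05 (10.5% of all genes). Tfam, which packages mitochondrial DNA, was at 40.2 ± 3.59 CPM with chow and 50.5 ± 9.24 CPM with statin (log2 fold change 0.36, adjusted p = 0.312 by edgeR). Cs, citrate synthase, was at 242 ± 57.8 and 162 ± 63.5 CPM (log2 fold change -0.56, adjusted p = 0.427 by edgeR). Ppargc1b, a coactivator of mitochondrial biogenesis named here because its p was also under 0.05, had -0.54 (adjusted p = 0.432 by edgeR). In males none of the 15 had an unadjusted p under 0.05 (1.96% of all genes), the median was 0.05, and the members with the smallest p, Tomm20 and Tfam, had 0.22 and 0.10.

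**Figure D4:**
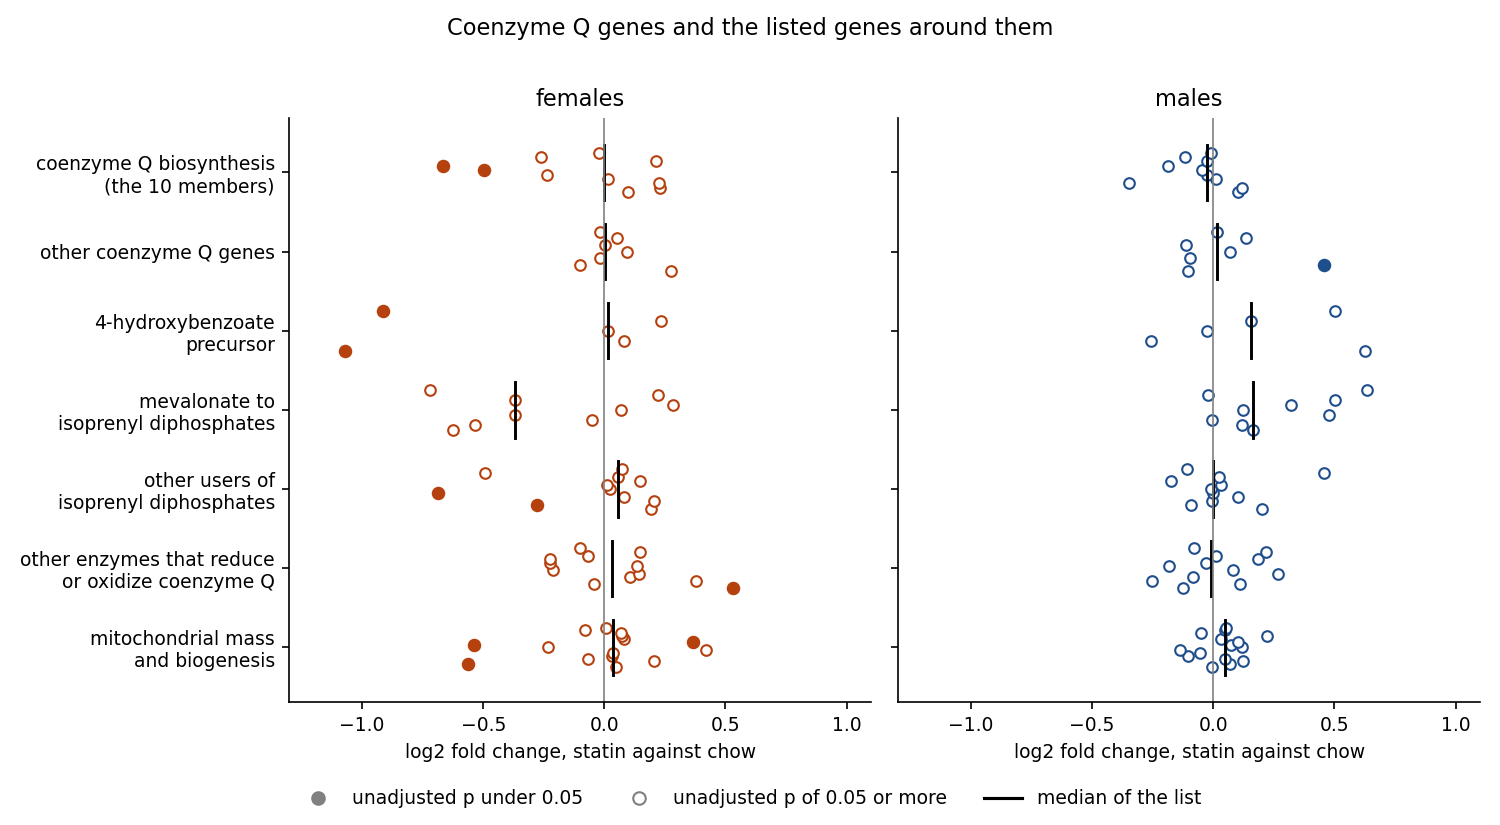
Log2 fold change of statin against chow (horizontal axis) for the 10 coenzyme Q biosynthesis genes and 6 lists of genes around them, in females (left) and males (right), with a point for each gene, filled where the unadjusted p was under 0.05, and a line at the median of the list. In females the filled points of the members are Coq8a (-0.67) and Coq7 (-0.50), and in males no member is filled.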

How the data were processed

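RNA-seq was done on 12 mouse livers in 4 groups of 3; the numbers of the livers come from the labels. Per the labels and methods, a strand-specific kit was used after poly(A) selection and reads were paired, 50 bp long. Per the labels, the submitters' processing notes name STAR 2.4.1a, HTSeq, edgeR 3.28.1 and GRCm38, without their order. The authors deposited CPM values, scaled to the total count of each liver, and a table described as TMM-normalized that holds whole counts: 0 of its values differed from the reads recovered from the deposited CPM (100% whole within 0.01 reads), so it was used as counts. The authors' filter, more than 1 CPM in 6 or more livers, held for the 11968 genes of this table.

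These counts were modelled in edgeR 4.0.16 in R 4.3.3 (quasi-likelihood test, TMM, 4 groups in one fit, no covariate, common dispersion 0.0380, prior estimated from the data), two-sided, with Benjamini-Hochberg adjustment over all genes. DESeq2 1.42.0 (which left 3 genes without a test) and limma 3.58.1 were alternatives, beside other scaling, filters, each sex alone, the replicate number as a block, a length correction, omission of the 10 highest genes and of each liver in turn. Each SE was obtained from the log2 fold change and its F statistic. Scripts were tested on simulated data in which 200 genes were changed in statin-treated females. At a log2 change of 0.7, edgeR recovered 9 with 0 false calls, DESeq2 80 with 19 and limma 1 with 0. At 1.4 these were 183 with 8, 189 with 29 and 183 with 7. Lengths and overlaps are from GENCODE vM21 (99.8% of the tested genes matched), and 1 list entry, written Choldh, matched no row under that symbol, so choline dehydrogenase was not analysed here. All 10 members are named whatever their values; of each other list, the genes with the 2 smallest unadjusted p in each sex, plus those a sentence needed; 1 gene under this rule is not reported here. Members and lists were chosen with earlier results of these data known. P-values of the main fit rest on the spread between livers within groups, estimated over the 4 groups together, with 3 livers in each. Python 3.11.15, numpy 2.4.6, pandas 2.3.3 and matplotlib 3.10.9 were used.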

Additional observations from a re-analysis of the deposited data

How the results depend on the processing

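No member was called by edgeR in any comparison under the alternatives run, leaving out each liver included, except Coq7 between the sexes on statin with library size alone (1 member). DESeq2 called 2 members in females (Coq8a and Coq7) and 1 between the sexes on statin (Coq7). When each liver was left out in turn, the female log2 fold change was between -0.77 and -0.60 for Coq8a (adjusted p 0.0617 to 0.397) and between -0.56 and -0.42 for Coq7 (adjusted p 0.164 to 0.471); over the other alternatives the adjusted p was 0.00218 to 0.411 and 0.0392 to 0.513. The members' median moved from -0.0071 to -0.18 in the interaction without the first statin-treated female liver, and between -0.21 (without that liver) and 0.17 (without the second) between the sexes on statin; over all livers left out it ranged from -0.18 to 0.12 in the interaction.

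Uncalled values changed sign, among them values not near 0, such as Pdss1 (-0.26) and Coq3 (0.23) in females when a liver was left out. With library size alone the sign changed for Coq5 in females (-0.0195), Pdss2 in males (0.00606) and the interaction of Coq5 (-0.0477). Pdss2 in males was 0.00209 with DESeq2's size factors, 0.00247 by DESeq2, 0.000328 with each sex alone and 0.00826 with the length correction. The interaction of Coq2 was 0.00734 by limma and 0.0200 with the replicate block, and that of Coq5 was -0.0149 with DESeq2's size factors, -0.0146 by DESeq2, -0.00155 without a filter, -0.00191 with the stricter filter and -0.00766 with the length correction. Leaving out 1 liver gave, in females, Pdss1 -0.47 to 0.052, Pdss2 -0.069 to 0.077, Coq2 -0.030 to 0.28, Coq3 -0.081 to 0.48 and Coq5 -0.047 to 0.088; in males, Pdss2 -0.055 to 0.018, Coq2 -0.088 to 0.31, Coq3 -0.020 to 0.31, Coq5 -0.048 to 0.045, Coq6 -0.092 to 0.072, Coq7 -0.17 to 0.043 and Coq9 -0.16 to 0.12; and in the interaction, Pdss1 -0.36 to 0.16, Pdss2 -0.066 to 0.081, Coq2 -0.21 to 0.19, Coq3 -0.21 to 0.35 and Coq5 -0.067 to 0.068. Without a change of sign, the female ranges were 0.080 to 0.35 for Coq4, -0.50 to -0.069 for Coq6 and 0.044 to 0.38 for Coq9. A stricter filter (above 10 CPM in at least 6 livers) removed Pdss1, Pdss2 and Coq4.

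Over all genes the count of calls in females (12) was 270 by DESeq2, 148 without a filter, 2 with the stricter filter, 0 with each sex alone and 5 with the replicate block; with single livers left out it was 62 and 75 without the first and the second statin-treated female liver, 2 without the first female chow liver, 1 without the first male statin liver and 0 without female chow replicate 2, female statin replicate 3, any male chow liver or male statin replicates 2 and 3. DESeq2 called 4 genes in males and 122 in the interaction, which had 103 without a filter and 14 without the second statin-treated female liver (0 to 14 over all livers). Between the sexes on chow the count (1250) was 1946 by DESeq2, 771 with the stricter filter and 635 to 1586 with a liver left out, below the main count by more than 1.5 times without the first or second female chow (727 and 677) or any male chow liver (635, 795 and 682); on statin (751) it was 1284, 356 and 378 to 743, with 378 without the second male statin liver and 456 without the third. With library size alone in place of TMM, 46.4% in place of 57.0% of the calls on chow and 52.1% in place of 69.8% on statin were higher in females, as were 45.9% in place of 56.5% of the genes with an unadjusted p under 0.05 between statin and chow in females higher on statin. The causes were not tested. Same-numbered livers of the 2 diets had correlations of their deviations of -0.54, -0.49 and 0.15 in females and -0.56, 0.07 and -0.54 in males. These were not compared with differently numbered livers, so they cannot show whether the numbers pair the livers. With the replicate block no member was called (0 of 10 in each comparison). With 3 livers a group, the 95% interval of a member's female log2 fold change reached from 0.24 (Coq5) to 0.62 (Pdss1) to either side of the estimate.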
